A study of Mus musculus with 16 samples.

Results

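Vehicle-treated liver and epididymal white adipose tissue (eWAT, the fat pad attached to the epididymis) were compared across genes by RNA sequencing. The 4 libraries were liver vehicle replicates 1 and 2 and eWAT vehicle replicates 1 and 2, out of 16 libraries from 4 tissues. They came from C57BL/6 mice 24 weeks old given vehicle, the control arm of a series in which the other mice received Sutent (sunitinib, an inhibitor of receptor tyrosine kinases). The series states 8 mice, 4 per treatment. Which animal, or how many animals, each library represents is not on the labels, nor whether liver and eWAT libraries with the same number share an animal. The members were 14975 gene symbols with a row in both tissue tables and a mean deposited value of at least 3 in either tissue, out of 17906 symbols in both tables and 23587 in either. Of these, 11816 reached that mean in both tissues, 451 in liver only and 2708 in eWAT only. Genes of the last 2 kinds had to differ in their deposited means to be included, which does not fix the direction of their call after normalization.

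The liver is the main source of plasma proteins and lipoproteins. Its hepatocytes also make glucose, urea, ketone bodies and bile acids, and they clear drugs and hormones. White adipocytes store triglyceride in 1 large lipid droplet, release fatty acids on adrenergic stimulation and secrete hormones such as leptin and adiponectin. They sit in a collagen matrix with progenitor cells, capillaries, macrophages and, on the surface of visceral depots, a mesothelium. Whole tissue was sequenced, so a lower value in 1 tissue can reflect fewer cells of a type or less RNA per cell, which cannot be told apart.

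All values are regularized log2 expression (rlog), which the authors computed separately for each tissue, so the 4 columns were quantile-normalized together (each column given the same distribution of values). Differences are liver minus eWAT in log2 units, and negative differences mean higher in eWAT. A gene was called higher in a tissue where its lowest library there was at least 1 log2 unit above its highest library in the other tissue. No p-value was computed across the 2 tables, because tissue and table cannot be told apart, and 2 libraries against 2 could not give an exact two-sided permutation p below 0.333. The rlog scale does not correct for transcript length, so levels are compared between tissues for 1 gene and not between genes. Near its lowest value (about -1.07 in the liver table and -1.06 in the eWAT table) a difference has no interpretable size.

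Both tissue labels matched their markers. Albumin (Alb), the most abundant plasma protein, was at 19.57 and 19.57 in liver and 9.47 and 10.15 in eWAT. The groups were far apart, with a difference of 9.76, which ranged from 9.38 to 10.58 when each library was left out and was highest without eWAT replicate 2. Adiponectin (Adipoq), the adipocyte hormone, was at 6.08 and 6.13 in liver and 16.44 and 16.33 in eWAT. Its difference was -10.27. The other hepatocyte markers, Apoa1, Ttr, Serpinc1, Hnf4a and Cps1, differed by 11.88, 11.21, 11.09, 7.35 and 10.29. The other adipocyte markers, Plin1, Fabp4, Cidec, Lep and Pparg, differed by -9.63, -9.54, -8.99, -10.35 and -3.66. All 12 were called in the direction of their tissue.

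Promoter sequences of 4 of the most tissue-divided genes are shown because the liver and adipose programs are known to be set at such promoters by HNF1 and HNF4 in hepatocytes and by C/EBP factors in both cell types. Alb and Fabp1 (liver fatty acid-binding protein) stand for liver, and Lep (leptin) and Adipoq for fat. Each line gives the 150 bases before the RefSeq start site in GRCm38.p6, 5′ to 3′ on the gene's strand. Matches to any of 6 motifs, on either strand, are in capitals. The motifs were GTTAAT (part of the HNF1 site), CAAAGTCCA (HNF4), TTGCNCAA (C/EBP), AGGTCANAG (a PPAR and RXR direct repeat), TATAAA (the TATA box) and CCAAT.
Alb (chr5:90460720-90460869, plus strand): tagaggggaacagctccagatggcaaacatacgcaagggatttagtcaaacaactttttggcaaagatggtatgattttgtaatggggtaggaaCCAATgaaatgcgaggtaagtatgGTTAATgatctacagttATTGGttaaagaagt
Fabp1 (chr6:71199729-71199878, plus strand): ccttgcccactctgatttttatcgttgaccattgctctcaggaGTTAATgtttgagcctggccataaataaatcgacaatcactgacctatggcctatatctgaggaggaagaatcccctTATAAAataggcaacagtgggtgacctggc
Lep (chr6:29060071-29060220, plus strand): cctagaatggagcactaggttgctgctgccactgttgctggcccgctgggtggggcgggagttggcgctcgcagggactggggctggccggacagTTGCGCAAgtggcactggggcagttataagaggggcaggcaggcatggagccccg
Adipoq (chr16:23146386-23146535, plus strand): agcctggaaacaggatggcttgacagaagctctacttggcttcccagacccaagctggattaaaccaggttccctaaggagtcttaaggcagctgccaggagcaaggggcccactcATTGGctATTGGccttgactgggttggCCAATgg
In Alb the GTTAAT match began 32 bases before the start, and CCAAT matches began 56 bases before it on the gene's strand and 15 on the other strand. Fabp1 held GTTAAT at 107 and TATAAA at 30 bases before the start. Lep held TTGCNCAA at 55, a match that reads the same on both strands. Adipoq held CCAAT at 7 on its own strand and at 34 and 27 on the other strand. Over the 27025 promoter windows of 300 bases in the promoter set used, GTTAAT was found in 7.20%, CAAAGTCCA in 0.477%, TTGCNCAA in 2.92%, AGGTCANAG in 2.02%, TATAAA in 14.2% and CCAAT in 37.9%. A match is a string of letters and not evidence of binding. Only 71.9% of the compared genes had a window in that set, also after matching older symbols (66.5% of genes higher in liver and 73.8% of those higher in eWAT). In the RefSeq gene list 94.7% of the compared genes were found. Shares of motifs in the sets of called genes are therefore void and were not compared.

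Of the 14975 genes, 3341 were called higher in liver (22.3%) and 3900 higher in eWAT (26.0%), while 7734 (51.6%) were not called. In 729 of the genes not called, the liver and eWAT libraries overlapped. Of the genes called higher in liver, 2673 had reached a mean of 3 in both tissues, as had 2269 of those higher in eWAT. The other liver calls outnumbered the 451 genes that reached it in liver only. Some genes that reached it in eWAT only were therefore called higher in liver after normalization. The median difference was 2.18 among genes higher in liver and -2.37 among those higher in eWAT. Very large differences were mostly on the liver side: 318 genes were higher in liver by a mean of at least 8 log2 units, against 72 higher in eWAT (238 and 175 on the deposited values, without normalization between the tables). At a mean of at least 2 units the order was the other way, with 1847 genes in liver and 2378 in eWAT. Libraries of 1 tissue lay close together, with a median range of 0.05 in liver and 0.07 in eWAT and a 95th percentile of 0.20 and 0.28, against a median absolute difference of 1.04 between the tissues. The rlog transform shrinks values of a gene toward each other within a table, so these ranges understate the spread of the counts. The ranges were also taken after quantile normalization, which gives equal values to genes of equal rank. Identical values, such as those of Alb in liver, show equal rank and not equal counts. At the limit of the call, the gaps just inside and outside were 1.0005 and 0.9993 in liver and 1.00003 and 0.9993 in eWAT.

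**Figure D1:**
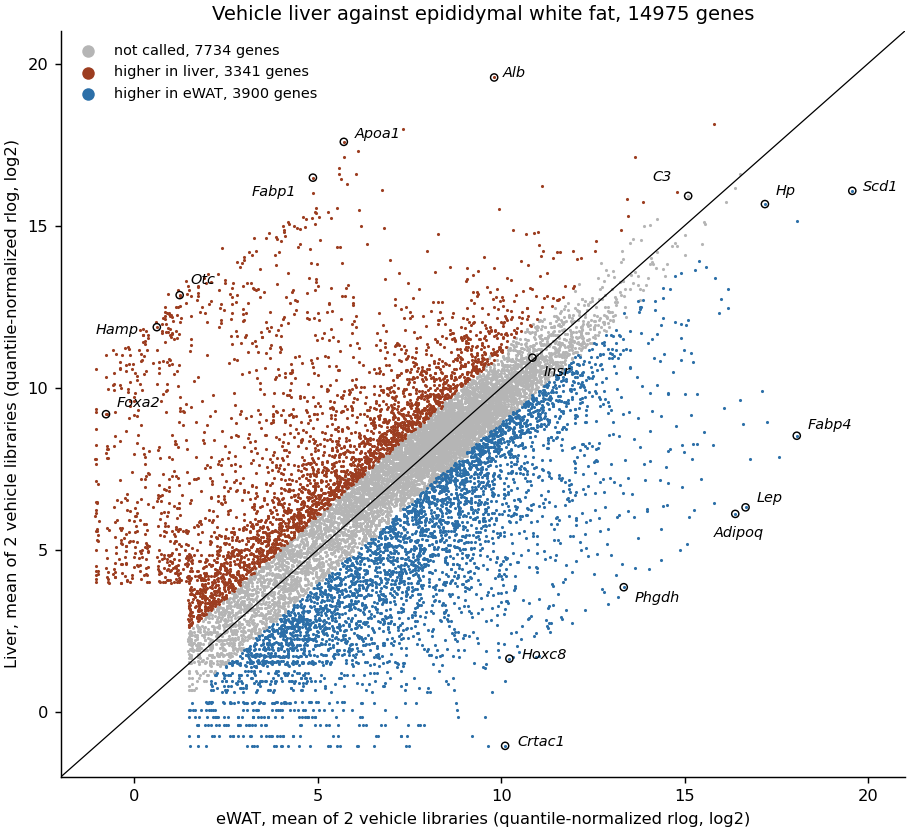
Mean quantile-normalized rlog of each of 14975 genes in the 2 liver vehicle libraries (vertical axis, log2) against the 2 eWAT vehicle libraries (horizontal axis, log2). Red points are the 3341 genes called higher in liver, blue points the 3900 called higher in eWAT, gray points the 7734 not called, and the line marks equal values; Alb, Apoa1 and Fabp1 lie far above it and Lep, Adipoq and Crtac1 far below.

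The count of calls depended on how the columns were set on 1 scale. Without normalization between the tables the median gene differed by -1.24, and the calls became 1430 higher in liver and 8235 higher in eWAT, so that liver genes made 14.8% of the calls in place of 46.1%. Of the 3341 liver calls, 1426 were also made on that scale, and 93 genes were called in the opposite direction; none of the 93 is named here. Centring each column on its median gave 3187 and 4222 calls, and centring on broadly expressed reference genes gave 3189 and 4163. Of 252 calls on genes named in the text, 21 were lost under at least 1 of 4 other scalings (17 higher in eWAT and 4 higher in liver). They were Rps9, Id3, Rps19, Mat2a, Gstm2, Acsl1, Hp, Pcx, Bcat2, Acaca, Rps12, Hmgcs1, Pfkl, Lama1, Rgs5, Angptl4, Rps2, Scd1, Hbb-b2, Car1 and Amy2a5. Of 21 named genes that were not called, 11 were called under at least 1 of these scalings. C3, Fn1, Hadha, Orm1, Pck1, Por and Thrb were then higher in liver under both centrings, and Cela1, Irs1, Klb and Ucp1 higher in eWAT on the deposited scale. The same rule on the sunitinib libraries of the 2 tissues called 3315 genes higher in liver (22.1%) and 3813 higher in eWAT (25.5%). Of the vehicle calls, 3135 (93.8%) in liver and 3674 (94.2%) in eWAT were also made there, and none was made in the opposite direction. The sunitinib and vehicle libraries of a tissue come from the same table, so their rlog values were shrunk together.

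The RNA of liver was concentrated in fewer genes. The 10 highest genes held 21.5% and 20.8% of the summed linear signal (2 raised to the deposited rlog value) in the liver libraries, against 12.8% and 11.4% in the eWAT libraries. In liver, 121 and 123 genes made up 50% of this sum, and in eWAT 474 and 543 did. These sums are not corrected for length. By this measure the highest genes in liver included Alb, Apoe, Serpina1b, Apoa1, the major urinary protein Mup3, Cyp2e1 and Ttr, and those in eWAT included Scd1, Fabp4, Car3, Lpl, Gsn, Hp and Sparc. Mup, Serpina1, Cyp2c, Cyp2d, Cyp4a and Ugt2b genes have near-identical copies that can share reads, so values of single members of these families are uncertain.

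The largest differences toward liver were led by enzymes and secreted proteins. Dmgdh, which removes a methyl group from dimethylglycine in mitochondria, was at 12.84 and 12.91 in liver and 0.90 and 0.93 in eWAT, a difference of 11.96. Apoa1, the main protein of high-density lipoprotein, was at 17.59 and 17.59 in liver and 5.58 and 5.84 in eWAT, a difference of 11.88. Otc, the urea cycle enzyme ornithine transcarbamylase, was at 12.82 and 12.90 in liver and 1.21 and 1.25 in eWAT, a difference of 11.62. Serpina1e, Mug2, Cyp2c50, Hsd3b5, Cyp2d40, Ugt2b36, Cyp4a14, Fabp2 and Cyp4a10 completed the 12 largest, from 11.92 for Serpina1e to 11.62 for Cyp4a10. The eWAT libraries of Cyp4a10 were within 0.1 of the lowest value of their table, so its difference has no exact size. Hsd3b5, Cyp2d40, Fabp2 and Cyp4a14 were also low in eWAT, at -0.76, -0.59, 0.15 and 0.83 in both libraries. The sizes and order of differences that rest on such low values are uncertain.

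On the eWAT side, Crtac1 had the most negative difference, -11.16, and Cd209f, a lectin of macrophages, followed with -10.70. Leptin (Lep), the hormone that reports fat stores to the brain, was at 6.29 and 6.33 in liver and 16.66 and 16.66 in eWAT, a difference of -10.35. Lpl, the lipase that takes fatty acids from circulating lipoproteins, was at 7.88 and 7.82 in liver and 17.59 and 17.59 in eWAT, a difference of -9.74. The call requires a gap, so neither gene could overlap between the tissues, and over all 14975 genes the libraries overlapped in only 729. Adipoq, Rbp7, Sncg, Aoc3, Ccl11, Retn, Glb1l2 and Plin1 made up the rest of the 12, with differences from -10.27 for Adipoq to -9.63 for Plin1. Retn encodes resistin, Ccl11 the eosinophil chemokine eotaxin, and Aoc3 an amine oxidase of the adipocyte surface. The liver libraries of Crtac1, Cd209f, Rbp7 and Ccl11 were within 0.1 of the lowest value of their table, so their differences have no exact size. The same holds for Aplnr, Bcat1, Crisp1, Hoxa7, Hoxc9, Pkm2 and Spink8, described further on.

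**Figure D2:**
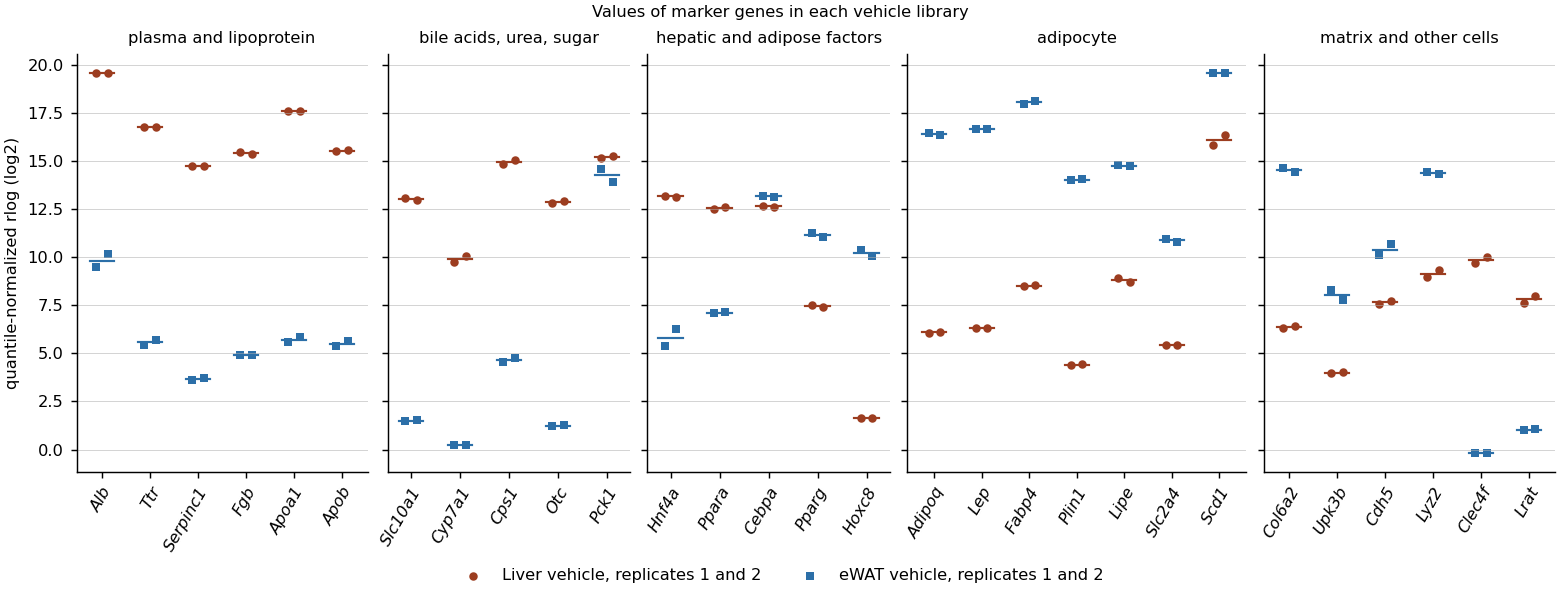
Quantile-normalized rlog (vertical axis, log2) of 29 genes in each vehicle library, in 5 panels by role; red circles are the 2 liver libraries, blue squares the 2 eWAT libraries, and short lines their means. Plasma protein genes are at 14 or above in liver, Adipoq, Lep and Fabp4 are above 16 in eWAT, and Cebpa and Pck1 lie close together in both tissues.

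Gene lists were described by their counts and medians. Over all compared genes 22.3% were higher in liver, 26.0% higher in eWAT and 51.6% not called, and the median difference was -0.04. Counts near these shares included 5 of 23 higher in liver for branched-chain amino acid catabolism. Others were higher in eWAT: 6 of 20 lymphocyte, 8 of 28 iron, copper and heme, and 7 of 25 reference genes. So were 8 of 38 coagulation, 7 of 31 lipoprotein and 4 of 16 sinusoidal endothelial genes. Kupffer cell (3 of 14) and stellate cell (3 of 13) counts higher in eWAT were also near 26.0%. Such counts do not set a list apart. Most lists also held members that reached a mean of 3 in 1 tissue only, so their counts depend in part on that filter. Of 22 genes for plasma carriers and acute phase proteins, 19 were higher in liver and 1 higher in eWAT, with a median of 9.74. Transthyretin (Ttr), the carrier of thyroid hormone and retinol-binding protein, was at 16.78 and 16.78 in liver and 5.43 and 5.72 in eWAT. Afm, Hrg and Ambp were nearly as far apart, at 11.09, 10.82 and 10.81. Haptoglobin (Hp), which binds free hemoglobin, was the exception, at 15.71 and 15.63 in liver and 17.07 and 17.32 in eWAT, a difference of -1.52 that became 0.10 under median centring and 0.11 under centring on reference genes. Orm1, an acute phase glycoprotein, was at 12.97 and 13.24 in liver and 12.84 and 12.67 in eWAT and was not called, but was called higher in liver at 1.54 and 1.55 under the same centrings.

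Of 38 coagulation factors and plasma protease inhibitors, 27 were higher in liver, 8 higher in eWAT and 3 not called, and the median was 9.60. Serpinf2 (the plasmin inhibitor), Cpb2, F12 and Serpinc1 (antithrombin) led with 11.51, 11.24, 11.19 and 11.09. Fibrinogen beta (Fgb) was at 15.46 and 15.37 in liver and 4.90 and 4.94 in eWAT. The 8 members higher in eWAT, a share not above the 26.0% over all genes, are known mainly from cells other than hepatocytes. They included F13a1, the A chain of factor XIII found in macrophages, at -8.72, the plasminogen activators Plau and Plat at -5.68 and -4.89, the endothelial thrombomodulin Thbd at -4.36, and Vwf, F3 and Tfpi between -2.44 and -1.40. Complement was divided as well, with 15 of 28 compared members higher in liver and 9 higher in eWAT (median 1.85). Mbl2, Mbl1, C8b and C8a, a mannose-binding lectin pair and chains of the terminal complex, were at 11.28, 10.87, 10.85 and 10.71. Adipsin (Cfd), the factor D protease first known from fat cells, was at 6.94 and 6.94 in liver and 14.97 and 14.90 in eWAT, and the receptors C5ar1 and C3ar1 and the C1q chain C1qb were at -4.51, -4.43 and -3.33. The central component C3 was at 15.97 and 15.87 in liver and 15.23 and 14.97 in eWAT and was not called. It was called higher in liver in other settings, at 1.25 on the deposited scale, 2.52 under centring on reference genes and 1.43 in the sunitinib libraries.

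Lipoprotein genes were higher in liver in 21 of 31 compared members and higher in eWAT in 7 (median 8.03). Apoa1, Apoa2, Apoa5 and Apoa4 led with 11.88, 11.40, 11.37 and 11.10, and Apob, the structural protein of very-low-density lipoprotein, was at 10.03. Lpl at -9.74, the receptor Vldlr at -5.37, the cholesterol exporter Abcg1 at -3.61 and Pltp at -2.91 had the most negative differences. Angptl4 and Gpihbp1, which inhibit and anchor lipoprotein lipase where triglyceride is taken up, were also higher in eWAT, at -2.27 and -1.91. Apoe was at 18.15 and 18.15 in liver and 15.75 and 15.87 in eWAT, higher in liver by 2.33.

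Bile acid synthesis and transport was the most one-sided of the metabolic lists. Of 23 compared members 22 were higher in liver, with a median of 8.14, and Klb, the co-receptor for FGF21 and FGF15, was not called at -0.40. Slc10a1 and Slco1a1, which take bile acids up from blood, were at 11.52 and 11.32, and Abcb11, the canalicular export pump, at 11.20. Cyp7a1, which sets the rate at which cholesterol is turned into bile acids, was at 9.76 and 10.08 in liver and 0.21 and 0.22 in eWAT, a difference of 9.71. Of the list, 18 members reached a mean of 3 in both tissues. Slc51b had a row in the eWAT table only, and Slc51a in neither.

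Of 46 genes for the urea cycle and amino acid catabolism, 38 were higher in liver and 6 higher in eWAT (median 7.92). In both tissues 36 of the 46 reached a mean of 3. Cps1, the first urea cycle enzyme, was at 14.85 and 15.05 in liver and 4.57 and 4.74 in eWAT, and Otc, Ass1, Asl and Arg1 differed by 11.62, 7.27, 5.35 and 8.83. Uroc1, Agxt and Hgd, which break down histidine, glyoxylate and tyrosine products, were at 11.34, 11.25 and 11.23. The eWAT-higher members included enzymes that make amino acids. Phgdh, the first enzyme of serine synthesis, was at 3.84 and 3.85 in liver and 13.49 and 13.19 in eWAT, a difference of -9.50. Psat1, the next step in the same pathway, was at -7.62, and Asns, asparagine synthetase, at -4.78. Arg2 and Mat2a, the non-hepatic forms of enzymes whose other forms are listed under liver, were at -2.28 and -1.24. In branched-chain amino acid catabolism 5 of 23 members were higher in liver, 3 higher in eWAT and 15 not called. Its median of 0.37 became -0.16 on the deposited scale and 1.09 under median centring, where 11 were higher in liver and 2 higher in eWAT. Its ends differed, with the aminotransferase Bcat1 at -8.12 and the phosphatase Ppm1k at 3.96.

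Sugar metabolism had nearly equal numbers on each side, with 22 of 50 compared members higher in liver and 20 higher in eWAT; the median of 0.78 became -0.15 on the deposited scale. The liver members included genes of glucose release and of fructose use. G6pc, the glucose-6-phosphatase that frees glucose, was at 9.64, Fbp1 at 8.19 and Khk, ketohexokinase, at 5.79. Fbp1 was at 8.88 without eWAT replicate 2. The eWAT members included Hk2 at -6.18, Pygb at -6.07, the insulin-responsive transporter Slc2a4 at -5.44 and Pfkfb3 at -5.37. Pck1, the cytosolic enzyme that feeds gluconeogenesis in liver and glycerol synthesis in fat, was at 15.18 and 15.25 in liver and 14.61 and 13.89 in eWAT and was not called. It was called higher in liver at 2.48 and 2.49 under the centrings by median and by reference genes and at 1.40 without eWAT replicate 1. Pcx, pyruvate carboxylase, was higher in eWAT at -1.54.

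Drug and hormone clearance followed the liver, with 56 of 69 compared members higher there and 5 higher in eWAT (median 4.35). A mean of 3 was reached in both tissues by 54 of the 69. Cyp2c50, Ugt2b36, Cyp4a14 and Cyp4a10 were the most different, from 11.81 to 11.62. The eWAT-higher members included Cyp1b1 at -4.93, Cyp4f18 at -2.95, Mgst3 at -2.89 and Gstm2 at -1.32. Por, the reductase that supplies electrons to these enzymes, was not called, at 1.08; it was called higher in liver at 2.16 under median centring, at 1.07 without liver replicate 2 and at 1.19 without eWAT replicate 1.

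Of 9 ketone body genes 5 were higher in liver and 1 higher in eWAT (median 2.06). Bdh1, which interconverts the main ketone bodies, was at 7.91. Oxct1, the transferase that lets other tissues burn ketone bodies, was at 6.10 and 6.05 in liver and 13.27 and 13.15 in eWAT, a difference of -7.14. Of 43 fatty acid oxidation genes, 20 were higher in liver, 5 higher in eWAT and 18 not called (median 1.07); under the centrings by median and by reference genes 30 and 31 were higher in liver. The thioesterases Acot3, Acot12 and Acot1 were at 10.32, 9.62 and 4.62, and the peroxisomal oxidase Acox2 at 8.23. The mitochondrial carriers Ucp3 and Ucp2 were the other way, at -7.69 and -4.42. The core enzymes Acadm, Acadl, Hadha and Hadhb lay between -0.49 and 0.26 and were not called, though Hadha was called higher in liver at 1.26 and 1.28 under those centrings.

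Lipogenesis was shared unevenly: 14 of 37 compared members were higher in eWAT, 10 higher in liver and 13 not called, and the median of -0.55 became 0.17 under median centring and 0.19 under centring on reference genes. Fasn, fatty acid synthase, was at 12.34 and 12.25 in liver and 16.04 and 15.82 in eWAT, a difference of -3.64. Scd1, the desaturase that makes oleate, was at 15.82 and 16.33 in liver and 19.57 and 19.57 in eWAT, a difference of -3.50 that was -1.26 and not called under median centring. Scd2, Mogat2, and the triglyceride-forming Dgat1 were at -4.74, -5.94 and -2.95. The liver side held the makers of long polyunsaturated fatty acids, with Elovl2 at 10.16, Fads2 at 5.28 and Fads1 at 4.25, together with Elovl3 at 6.66. Cholesterol synthesis was higher in liver in 15 of 24 members and higher in eWAT in 2 (median 1.82). The esterifying enzyme Soat2 was at 8.08, while Soat1 and Hmgcs1 were at -3.20 and -1.73.

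The lipid droplet and lipolysis list was higher in eWAT in 21 of 30 compared members and higher in liver in 5 (median -1.86). Perilipin 1 (Plin1), the coat of the adipocyte droplet, was at 4.38 and 4.42 in liver and 14.00 and 14.07 in eWAT, a difference of -9.63. Prkar2b, Cidec and Aqp7 followed at -9.21, -8.99 and -8.38. The lipases Lipe and Pnpla2 and the beta-3 adrenergic receptor Adrb3 were at -5.93, -4.04 and -4.90. Members higher in liver were Fitm1 at 7.90, Cideb at 7.64, the glycerol channel Aqp9 at 6.82, Adra1b at 6.27 and Plin5 at 3.17. Plin2, the droplet coat found in most cells, was at 13.05 and 13.01 in liver and 13.79 and 13.94 in eWAT and was not called.

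Adipokines and adipocyte identity genes were higher in eWAT in 31 of 40 compared members, with a median of -6.52. A mean of 3 was reached in both tissues by 27 of the 40. Lep, Adipoq, Sncg and Retn led. Fabp4, the fatty acid-binding protein of adipocytes, was at 8.50 and 8.54 in liver and 17.97 and 18.15 in eWAT. Of the exceptions, Serpina12 (vaspin), described as an adipokine, was at 9.94, and Rbp4, Cebpb and Klf15 were at 2.37, 2.11 and 2.06. The adipogenic factor Cebpa, which also acts in hepatocytes, was at 12.68 and 12.63 in liver and 13.18 and 13.14 in eWAT and was not called. Hcar1, the lactate receptor of adipocytes, and Nnat and Tbx15 had rows in the eWAT table only. Caveolae, the membrane pits that cover adipocytes and endothelium, had 6 of 8 compared members higher in eWAT (median -7.67), with Cav1 at 6.44 and 6.45 in liver and 15.87 and 15.75 in eWAT. Ptrf, Prkcdbp and Ehd2 were at -8.26, -8.17 and -8.07, and Pacsin3 alone was higher in liver, at 2.27.

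**Figure D3:**
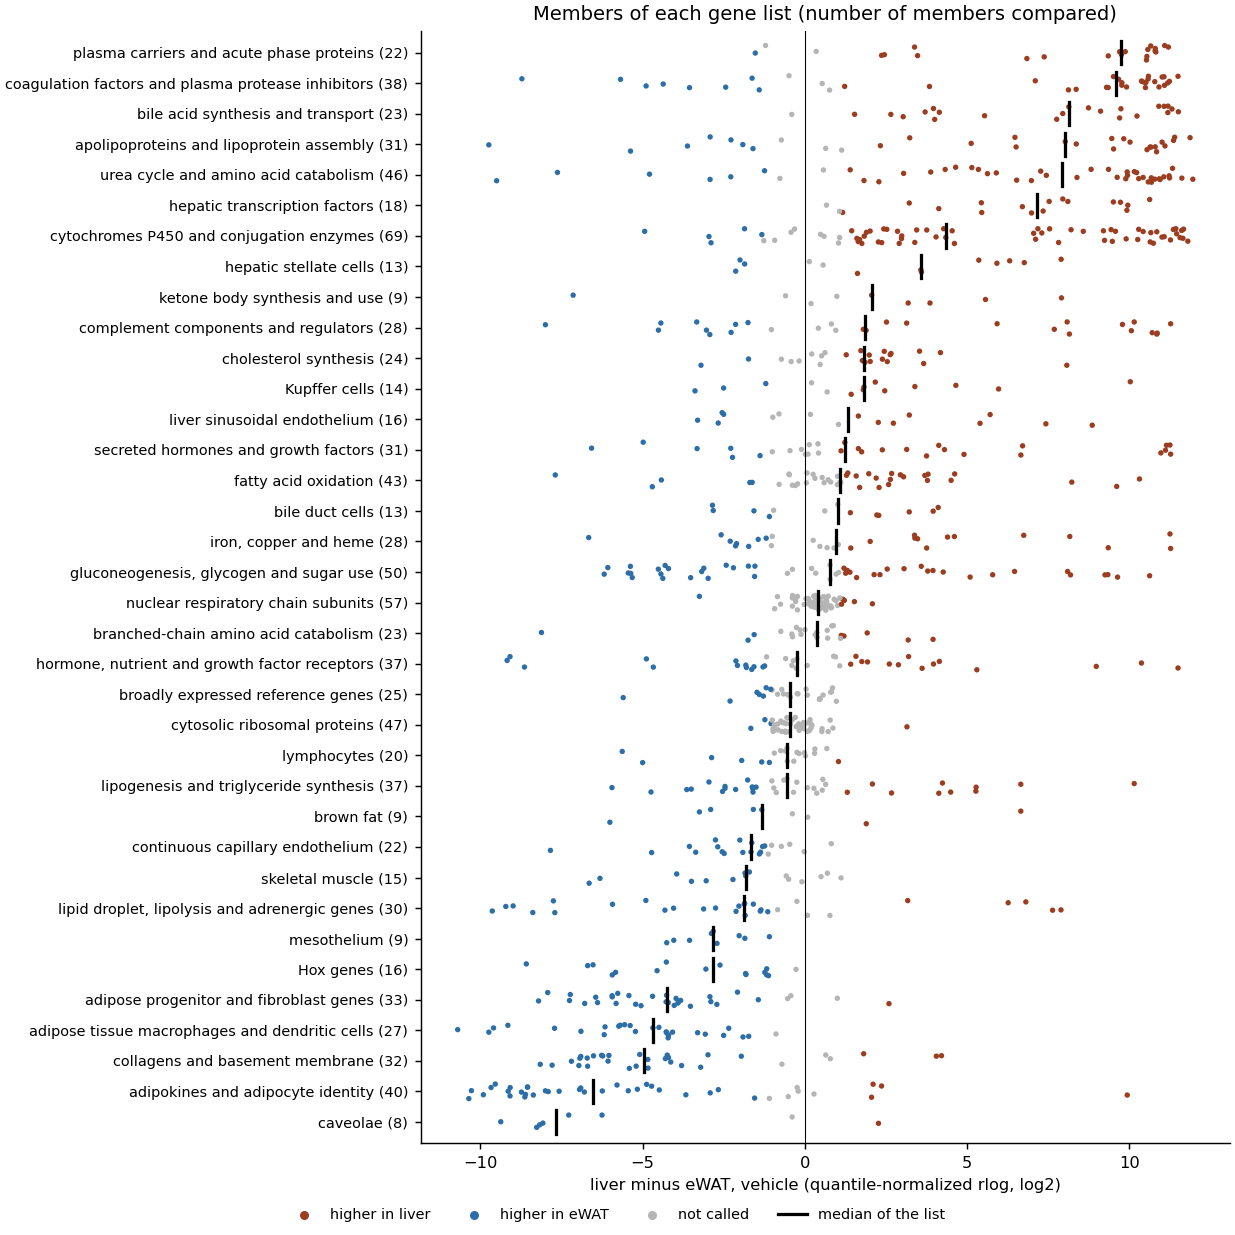
Difference of each compared member (points; horizontal axis, liver minus eWAT in log2) in 36 gene lists, ordered by their median (black bars); red is called higher in liver, blue higher in eWAT and gray not called, and the number of members compared stands after each name. Plasma proteins and bile acid genes lie on the right, caveolae, adipokines and collagens on the left, and respiratory chain and ribosomal protein genes near 0.

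Hepatic transcription factors and Hox genes fell on opposite sides. Factors on the adipocyte list were mixed: Pparg was higher in eWAT, Cebpa was not called, and Cebpb and Klf15 were higher in liver. Of 18 compared hepatic factors 16 were higher in liver, none higher in eWAT (median 7.17), and 12 of the 18 reached a mean of 3 in both tissues. Hnf4a was at 13.20 and 13.12 in liver and 5.36 and 6.27 in eWAT, with 7.35 as its difference and 8.12 without eWAT replicate 2. Nr1i2 (the xenobiotic receptor PXR), Foxa2, Creb3l3 and Nr0b2 were at 10.63, 9.96, 9.93 and 9.73, and Foxa2 was below 0 in both eWAT libraries. Foxa3 and Onecut1 had rows in the liver table only, and 2 more members were under a mean of 3. Hox genes, which record position along the body axis, were the opposite: 15 of 16 compared members were higher in eWAT and none in liver (median -2.83), and 16 more of the 33 had a row in the eWAT table only. Hoxc8 was at 1.64 and 1.64 in liver and 10.39 and 10.06 in eWAT, and Hoxd8, Hoxa7 and Hoxc9 were at -6.69, -6.52 and -5.93. Only 1 Hox gene reached a mean of 3 in both tissues, so nearly all of them had to differ in their deposited means to be included. Hoxa4 at -1.18 became 0.09 when a mean of at least 5 was required.

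The stroma marked eWAT. Of 32 collagens and basement membrane genes 26 were higher in eWAT and 3 higher in liver (median -4.96). Col6a2 was at 6.33 and 6.43 in liver and 14.65 and 14.42 in eWAT, and Col15a1, Col6a1 and Col4a2 were at -7.79, -7.19 and -6.96. Col13a1, Col27a1 and Lama1 were higher in liver at 4.22, 4.06 and 1.82, and fibronectin (Fn1), which hepatocytes release into plasma, was not called at 0.65 but was called higher in liver at 1.88 and 1.89 under the centrings by median and by reference genes. Of 33 adipose progenitor and fibroblast genes 29 were higher in eWAT (median -4.26), led by Mfap5, Lox, Thbs1 and Sparc at -8.20, -7.92, -7.25 and -7.23. Dpp4 alone was higher in liver, at 2.60. The 9 compared mesothelial genes were higher in eWAT (median -2.82), with Upk1b at -4.25 and Upk3b at -4.04. Only 5 of them reached a mean of 3 in both tissues, and the other 4 had to differ in their deposited means to be included.

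The continuous capillary and adipose macrophage lists had no member higher in liver, while the sinusoidal and Kupffer cell lists had members on both sides. Of 22 genes of continuous capillaries 16 were higher in eWAT and none in liver (median -1.64), with Aplnr at -7.84 and Cdh5 at -2.75. Of 16 sinusoidal endothelial genes 8 were higher in liver and 4 in eWAT (median 1.35). On the deposited scale 5 of them were higher in liver and 6 in eWAT (median -0.16). Clec4g was at 8.86, Gata4 at 7.43 and Oit3 at 5.71, whereas Lyve1, Stab1, Cldn5 and Mrc1 were between -3.30 and -2.50; Lyve1 and Mrc1 are also on the list of adipose tissue macrophages. Of 14 Kupffer cell genes 9 were higher in liver and 3 higher in eWAT (median 1.81). On the deposited scale 5 of the Kupffer cell genes were higher in liver and 4 in eWAT (median 0.19). Clec4f, the lectin that defines mouse Kupffer cells, was at 9.70 and 10.03 in liver and -0.17 and -0.17 in eWAT, and Clec1b and Cd5l were at 5.98 and 4.66. Folr2, Cd163 and Id3 were higher in eWAT at -3.38, -2.50 and -1.20, and the call of Id3 was lost without liver replicate 1 (-1.15). Of 27 genes of adipose tissue macrophages and dendritic cells 26 were higher in eWAT and none in liver (median -4.68). A mean of 3 was reached in both tissues by 18 of the 27. Retnla was at -9.59 (-10.32 without eWAT replicate 2) and Gpnmb at -9.15. Lysozyme (Lyz2) was at 8.96 and 9.33 in liver and 14.41 and 14.32 in eWAT. Of 20 compared lymphocyte genes 6 were higher in eWAT, 1 higher in liver and 13 not called (median -0.54), and only 3 reached a mean of 3 in both tissues. Their count higher in eWAT was 19 on the deposited scale (median -2.51) and 13 under both centrings (medians -1.26 and -1.25).

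Of 13 hepatic stellate cell genes 8 were higher in liver and 3 higher in eWAT (median 3.58). Colec10, Lrat (which stores vitamin A as esters) and Lhx2 were at 7.90, 6.77 and 6.32, and Des, Cygb and Rgs5, which other mural cells also make, were at -2.13, -1.99 and -1.85. Bile duct genes were mixed, with 6 of 13 higher in liver and 4 higher in eWAT, and their median of 1.02 became -0.94 on the deposited scale. Krt8, a keratin that hepatocytes also make, was at 11.81 and 11.65 in liver and 6.85 and 8.37 in eWAT, so its eWAT libraries differed by more than a unit; its difference of 4.11 was 5.06 without eWAT replicate 2 and 3.46 without eWAT replicate 1. Krt18, its partner, was at 3.96 and at 4.79 without eWAT replicate 2. Markers of epididymal duct, the organ beside the eWAT pad, were present at low level in eWAT: Crisp1 was at -0.39 and -0.39 in liver and 5.37 and 5.10 in eWAT and Spink8 at 0.00 and 0.10 in liver and 4.66 and 4.66 in eWAT. Of the 23 genes on that list, 4 were compared, 3 of them higher in eWAT, 8 had a row in the eWAT table only and 1 in the liver table only. None of the 4 reached a mean of 3 in both tissues, so each was included through 1 tissue only. The median of the 4 compared genes was 4.38 and 4.39 in the eWAT libraries and 0.10 and 0.24 in the liver libraries. The part of such cells in the eWAT values was not tested. Skeletal muscle genes were higher in eWAT in 9 of 15 (median -1.82), with Myl1 at -6.65 and Acta1 at -6.31, though 3 of the 15 reached a mean of 3 in both tissues and the median was 0.00 over those. Of 12 red blood cell genes 4 were compared, with Hbb-b2 higher in eWAT at -1.74 and Alas2 and Car1 higher in liver at 3.55 and 2.20. Of 16 exocrine pancreas genes 2 were compared, with Amy2a5 higher in liver at 2.13 and Cela1 not called at -0.26. Brown fat genes were higher in eWAT in 5 of 9 and higher in liver in 2 (median -1.32), though only 4 of the 9 reached a mean of 3 in both tissues and the median was 0.63 over those. Ucp1, which defines brown adipocytes, was at 5.06 and 5.05 in liver and 5.02 and 4.90 in eWAT and was not called.

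Receptors were divided about evenly, and secreted hormones were more often higher in liver. Of 37 compared receptors 14 were higher in liver and 13 higher in eWAT; the median of -0.24 became 0.60 under median centring and 0.61 under centring on reference genes. The asialoglycoprotein receptor Asgr1 and the glucagon receptor Gcgr were at 11.51 and 10.38, and Erbb3 was at 5.31. The oxytocin receptor Oxtr, the natriuretic peptide clearance receptor Npr3 and the thyrotropin receptor Tshr were at -9.17, -9.08 and -8.64. The oxytocin receptor was at 2.75 and 2.74 in liver and 11.45 and 12.39 in eWAT, so its eWAT libraries were nearly a unit apart, and its difference was -9.97 without eWAT replicate 1. The insulin receptor (Insr) was at 10.91 and 10.95 in liver and 10.85 and 10.86 in eWAT and was not called, nor were the adiponectin receptors Adipor1 and Adipor2 at -0.35 and -0.59; these 3 were chosen after their values were seen. The corticotropin receptor Mc2r was among the 5 highest genes with a row in the eWAT table only. Of 31 compared hormones and growth factors 17 were higher in liver and 6 higher in eWAT (median 1.23). Hepcidin (Hamp), which controls iron release into blood, was at 11.88 and 11.86 in liver and 0.61 and 0.61 in eWAT. Lect2, Inhbc and Inhbe were at 11.15, 11.12 and 10.98, and the fasting hormone Fgf21 was at 4.91. Fgf10, Inhbb and Pdgfb were higher in eWAT at -6.57, -4.98 and -3.32. In the iron, copper and heme list 13 of 28 were higher in liver and 8 higher in eWAT (median 0.97), with Hfe2 (hemojuvelin) at 8.17 and the copper ferroxidase Heph at -6.66.

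Whether genes that every cell uses lay near 0 depended on the scaling. Of 57 nuclear respiratory chain subunits 51 were not called and 5 were higher in liver (median 0.40). The median was -0.08 on the deposited scale and 1.17 under median centring, and 35 members were higher in liver under that centring and 37 under centring on reference genes. Atp5g1 at 2.09 was the member highest in liver and Cox8b, also a brown fat marker, the one most negative at -3.25. Of 47 cytosolic ribosomal protein genes 43 were not called (median -0.44, which became 0.33 under median centring), the exceptions being Rps12, Rps19 and Rps9 at -1.66, -1.23 and -1.04 and Rps2 at 3.15; Rps9 became 0.07 under median centring and lost its call without either liver library (-1.02 and -0.99). Of 25 compared reference genes used for scaling 18 were not called and 7 were higher in eWAT, with Reep5 the most different at -5.59; their median of -0.44 became 0.44 under median centring. Reads of ribosomal protein genes can also match their many pseudogenes, so Rps2 is uncertain.

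**Figure D4:**
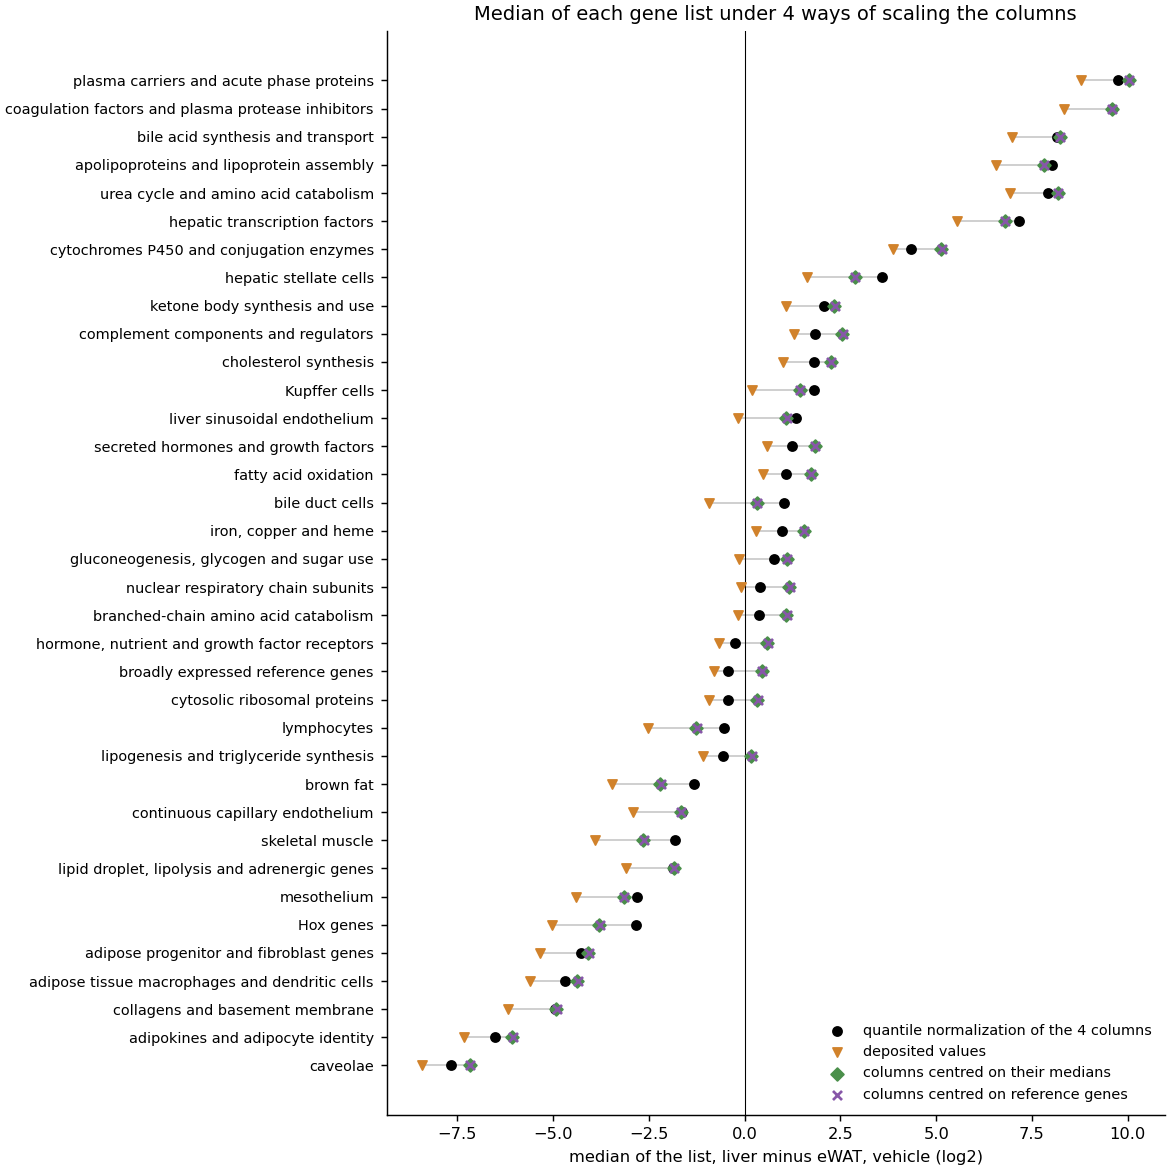
Median difference of each of 36 gene lists (horizontal axis, liver minus eWAT in log2) under 4 ways of scaling the columns: quantile normalization (black circles), the deposited values (orange triangles), columns centred on their medians (green diamonds) and columns centred on reference genes (purple crosses). The plasma protein, bile acid, adipokine, collagen and caveolae medians stay on their side of 0 under all 4, while the respiratory chain, ribosomal protein, receptor and lipogenesis medians cross it.

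Related genes that do the same step in different tissues were set side by side in 30 pairs fixed in a list, 29 of which had both members compared. In 19 pairs the first member was higher in liver and the second higher in eWAT, against background shares of 22.3% and 26.0% over all genes. Fatty acid-binding proteins were the widest pair: Fabp1 was at 16.53 and 16.44 in liver and 4.84 and 4.90 in eWAT, a difference of 11.61, and Fabp4 had -9.54. The triglyceride lipases Lipc and Lpl were at 10.67 and -9.74. Glucose transporters were divided, with Slc2a2 at 11.68 and 11.85 in liver and 3.71 and 3.62 in eWAT and Slc2a4 at 5.41 and 5.46 in liver and 10.94 and 10.81 in eWAT. Pyruvate kinases (Pklr 6.47, Pkm2 -3.85), glycogen synthases (Gys2 3.59, Gys1 -4.30) and glycogen phosphorylases (Pygl 1.60, Pygb -6.07) split in the same way.

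Pairs beyond sugar metabolism split as well. Glycerol channels were at 6.82 for Aqp9 and -8.38 for Aqp7, and the droplet proteins at 7.64 for Cideb and -8.99 for Cidec. The nuclear receptors Ppara, of fatty acid oxidation, and Pparg, of adipogenesis, were at 12.50 and 12.63 in liver and 7.08 and 7.14 in eWAT for Ppara and 7.53 and 7.42 in liver and 11.24 and 11.03 in eWAT for Pparg. Fgfr4 and Fgfr1, receptors for FGF15 and FGF21 with Klb, were at 3.97 and -4.88. Arginases (Arg1 8.83, Arg2 -2.28) and methionine adenosyltransferases (Mat1a 10.59, Mat2a -1.24) also split. In 3 pairs both members were higher in eWAT: Pfkl and Pfkp at -1.74 and -5.36, Scd1 and Scd2 at -3.50 and -4.74, and Bcat1 and Bcat2 at -8.12 and -1.56. Both Adh1 and Adh7 were higher in liver, at 4.05 and 7.04. Of the split pairs, Acsl5 at 2.09 and Acsl1 at -1.50 did not keep their sides under every scaling, since Acsl1 became 0.01 when columns were centred on reference genes. Mat2a, and of the other pairs Scd1, Bcat2, Pfkl and Acaca, kept their sign and lost their call under at least 1 other scaling. Irs2 was higher in eWAT at -1.24 and Irs1 was not called at -0.26. Thra, Acaca and Lpin2 were called while their partners Thrb, Acacb and Lpin1 were not.

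Genes with the same call also lay next to each other in the genome. By their order in RefSeq (GRCm38.p6), which placed 13431 of the compared genes, the next compared gene was also higher in liver for 30.6% of genes higher in liver, against 20.8% of all placed genes. For genes higher in eWAT the shares were 33.0% and 27.1%. Uninterrupted runs of at least 6 genes with the same call numbered 17 in liver and 13 in eWAT. The longest liver run was the major urinary protein cluster of 15 genes from Mup4 to Mup21, followed by 11 genes from Serpina1b to Serpina3a. The Cyp2c genes from Cyp2c29 to Cyp2c70, the Cyp2b and Cyp2a genes from Cyp2b10 to Cyp2f2 and the conjugating genes from Ugt2b34 to Sult1d1 formed runs of 8 genes each. In eWAT, a run of 7 genes was Hoxb7 to Hoxb2. Copies in the Mup, Serpina1, Cyp2 and Ugt2b clusters can share reads, which would give neighbours the same call.

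Some genes had a row in 1 table only and could not be compared. The liver table alone held 640 symbols, of which 112 had a vehicle mean of at least 3 and 52 of at least 5, on its own deposited scale. Foxa3, the liver forkhead factor, was the highest, at 9.67 and 9.55 in the 2 libraries, and Slc22a7, Mup13 and 2 genes with clone names followed. The eWAT table alone held 5041 symbols, of which 963 had a mean of at least 3 and 269 of at least 5. Hcar1 was the highest, at 9.90 and 9.54, followed by Aldh3b2 and by Mc2r at 9.19 and 9.04. An absent row can come from a gene with no reads in any library of the tissue or from the annotation used, which was not tested.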

How the data were processed

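RNA sequencing libraries of 4 vehicle samples were used. The deposited values are regularized log2 expression per gene, which the authors made as 1 table per tissue, as the tables' names give it. The submitters' processing notes name the build mm9 and, without their roles, DESeq2, bedtools, TopHat2 2.1.1 and bcl2fastq 2.17.1.14. What annotation, counting and strand setting were used is, in the sources used here, not given. Such values are shrunk toward each gene's mean within a table, which narrows the spread between libraries of a tissue for genes with few reads, and the depth per library is unknown.

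Symbols altered to dates by a spreadsheet (20 in the liver and 25 in the eWAT table) were left out. The columns were quantile-normalized with numpy 2.4.6 and pandas 2.3.3 in Python 3.11.15. The call rule was tested on simulated data in which few genes differed, in equal numbers each way. That test does not cover tissues that differ in as many genes as these. Named genes are the 12 largest differences per direction, up to 4 members per direction of each of 39 lists (1094 genes, 979 compared, 33 in neither table), both members of 30 pairs, Alb, Adipoq, and the highest genes with a row in 1 table; other genes were chosen after their values were seen. The members and lists were chosen with earlier results of these data known. Alternatives covered scaling, the filter, the gap, pairing by number, each library left out and the sunitinib libraries. Brown and inguinal fat were not analysed here. Where nothing says that libraries come from separate mice, the spread may be technical. Some members counted in the lists and pairs are not reported here by name.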

Additional observations from a re-analysis of the deposited data

How the results depend on the processing

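The counts of genes higher in liver and in eWAT became 1430 and 8235 on the deposited scale, 2175 and 2473 where both tissues had to reach a mean of 3, 1752 and 2267 with a gap of at least 2, and 6976 and 7270 with any gap above 0. With each library left out they ranged from 3313 to 3609 in liver and from 3881 to 4099 in eWAT. Under the other alternatives both stayed within 1.5 times the reported counts. Alb was at 10.11 on the deposited scale, 11.36 under median centring, 11.37 under centring on reference genes and 9.38 to 10.58 with each library left out. Adipoq was at -10.74, -9.49 and -9.48 in the same order, -10.38 where both tissues had to reach a mean of 3, -10.05 in the sunitinib libraries and -10.70 to -9.88 with each library left out.

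Called single genes that changed sign were Acsl1 (0.010 under centring on reference genes), Hoxa4 (0.086 with a mean of at least 5), Hp (0.10 and 0.11) and Rps9 (0.072 and 0.084) under the centrings by median and by reference genes. The medians of 13 of 39 lists changed sign under at least 1 alternative. On the deposited scale they were branched-chain amino acid catabolism (-0.16), sugar use (-0.15), liver sinusoidal endothelium (-0.16), bile duct cells (-0.94), the respiratory chain (-0.08), exocrine pancreas (-0.44, or -0.26 with the filter set to 5) and red blood cells (-0.45). Under the centrings by median and by reference genes they were lipogenesis (0.17 and 0.19), receptors (0.60 and 0.61), ribosomal proteins (0.33 and 0.34) and the reference genes (0.44 and 0.45). Where both tissues had to reach a mean of 3, so that fewer genes were left, they were receptors (0.52), skeletal muscle (0.0001) and brown fat (0.63), and in the sunitinib libraries branched-chain catabolism (-0.10). The cause of the other changes was not tested.

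Same-numbered libraries did not deviate together (correlation of their deviations over genes -0.04), and the labels do not say whether they share an animal, so the numbers were not taken to pair the samples. With the replicate block, which asks that both same-numbered differences be at least 1, the counts were 3396 in liver and 3945 in eWAT, Alb stayed at 9.76 and Adipoq at -10.27. Only Por, of the genes named, changed its call under the block, to higher in liver. Depth is unknown, so differences of genes near the lowest value of a table have no limit of detection.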

Other observations

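The spread between the 2 eWAT vehicle libraries was uneven across genes. Of the 14975 genes, 32 differed by at least 1 log2 unit between them, and 31 of these were higher in replicate 2, although over all genes only 44.7% were higher in that library. The genes were chosen after their values were seen. Many are known from epithelia. Dcdc2a was at 6.09 in replicate 1 and 8.62 in replicate 2. Mmp7, a secreted protease of glandular epithelium, was at 5.97 and 8.21. The endocytic receptor Lrp2 was at 6.51 and 8.29, the tight junction gene Cldn2 at 5.69 and 7.46, and the kidney and duct cadherin Cdh16 at 5.79 and 7.52. Keratins Krt8 and Krt18 were at 6.85 and 8.37 and at 6.44 and 7.74, and the adhesion gene Epcam at 5.74 and 6.90. Akr1b7 was the one gene higher in replicate 1, at 6.44 against 5.39. Of the epididymal markers named above, Crisp1 was at 5.37 and 5.10 and Spink8 at 4.66 in both. These markers are few and at low level. Genes with a row in the eWAT table only were not counted here, and some differed by at least 1 unit on the deposited scale. Which cells the differences between the eWAT libraries came from was not tested. In liver, 2 genes differed by at least 1 between the libraries, both serum amyloid A genes of the acute phase whose near-identical copies can share reads. Saa1 was at 9.77 and 11.23, and Saa2 at 8.03 and 9.65.

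The tissue difference of a few genes was not the same size in the sunitinib libraries, given here as values that were not tested. Akr1b7 differed by -3.09 in vehicle and -7.78 in sunitinib libraries, Crisp1 by -5.62 and -9.06, Serpina1f by -3.60 and -7.17, and Spink8 by -4.61 and -7.35. The smooth muscle genes Actg2 and Cnn1 differed by -3.42 and -6.45 and by -3.08 and -6.07. Ubd, a ubiquitin-like protein, moved the other way, from -7.53 to -4.37, and the macrophage gene Gpnmb from -9.15 to -6.92. Krt8 went from 4.11 to 1.85 and Fads2 from 5.28 to 3.24.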
